A study of Rattus norvegicus with 8 samples.

Results

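Type IV collagen, laminin, nidogen and agrin genes of the glomerular basement membrane were examined in glomeruli of Dahl salt-sensitive (Dahl SS) rats and spontaneously hypertensive rats (SHR). They are Col4a1, Col4a2, Col4a3, Col4a4, Col4a5, Lama5, Lamb2, Lamc1, Nid1 and Agrn, taken by gene symbol. The list was chosen with earlier results of these data known. Of these 10 genes, 9 had at least 1 probe set (a group of short oligonucleotides that measures a transcript) annotated to them, of 14217 genes measured in all, and Col4a3 is not analysed here. The brightest probe set of a gene on average stands for it here, and any others are given beside it.

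Glomeruli were isolated from male Dahl SS and SHR rats aged 4 or 6 weeks, with 2 rats for each strain and age and 1 Affymetrix array for each rat, 8 in all. All rats were kept on a low-salt diet and received no other treatment that the sources name. Dahl rats become proteinuric spontaneously and served as the affected strain, while SHR rats, which also become hypertensive, served as the non-proteinuric strain. The strains are separate inbred backgrounds, so that a strain difference is not that of a single gene and cannot be told apart from other differences of background. Ages were compared between different rats.

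The glomerular basement membrane is a sheet of matrix between the fenestrated endothelium and the foot processes of podocytes, and it forms part of the filtration barrier. Its type IV collagen comes as a network of the Col4a1 and Col4a2 chains, which endothelial and mesangial cells make and which dominates in the immature glomerulus, and as a network of the Col4a3, Col4a4 and Col4a5 chains, which podocytes make and which dominates in the mature membrane. Lama5, Lamb2 and Lamc1 encode the chains of the main laminin of the mature membrane, nidogen 1 bridges laminin and type IV collagen, and agrin is a heparan sulfate proteoglycan bound to laminin.

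The type IV collagen genes lie head to head in pairs, and of these pairs Col4a1 and Col4a2 have the closest starts. In the RefSeq annotation of the rat build GRCr8, their starts lie 77 bases apart on chromosome 16, and windows from 250 bases before to 50 bases after each start share 176 of 300 bases. Of 33469 promoters in the table, 2.13% had a start on the opposite strand, facing away, within 77 bases. The windows of Col4a1 (chr16:84885347-84885646, + strand) and Col4a2 (chr16:84885471-84885770, - strand) are shown because a single stretch of sequence covers the starts of both genes. Capitals mark the bases that the windows of a pair share, read on opposite strands.
Col4a1: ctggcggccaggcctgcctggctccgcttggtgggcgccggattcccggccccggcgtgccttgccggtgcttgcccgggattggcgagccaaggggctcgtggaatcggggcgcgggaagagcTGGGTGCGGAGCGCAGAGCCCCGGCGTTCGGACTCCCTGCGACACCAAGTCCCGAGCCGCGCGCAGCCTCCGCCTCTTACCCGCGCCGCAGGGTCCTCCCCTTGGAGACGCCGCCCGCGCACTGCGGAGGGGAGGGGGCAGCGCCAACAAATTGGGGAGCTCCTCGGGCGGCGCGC
Col4a2: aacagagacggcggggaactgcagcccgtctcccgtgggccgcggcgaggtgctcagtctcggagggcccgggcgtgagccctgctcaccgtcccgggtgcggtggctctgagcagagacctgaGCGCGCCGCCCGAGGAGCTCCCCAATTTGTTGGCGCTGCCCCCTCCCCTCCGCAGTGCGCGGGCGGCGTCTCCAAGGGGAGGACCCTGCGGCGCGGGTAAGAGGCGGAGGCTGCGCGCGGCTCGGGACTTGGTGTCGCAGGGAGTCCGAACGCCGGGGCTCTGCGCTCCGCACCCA
Col4a3 and Col4a4 start 413 bases apart on chromosome 9 and their windows share 88 bases. A start on the opposite strand within that distance was found for 8.75% of promoters. The window of Col4a4 (chr9:91323528-91323827, - strand) is shown as the counterpart whose gene was measured, with the bases shared with the Col4a3 window in capitals.
Col4a4: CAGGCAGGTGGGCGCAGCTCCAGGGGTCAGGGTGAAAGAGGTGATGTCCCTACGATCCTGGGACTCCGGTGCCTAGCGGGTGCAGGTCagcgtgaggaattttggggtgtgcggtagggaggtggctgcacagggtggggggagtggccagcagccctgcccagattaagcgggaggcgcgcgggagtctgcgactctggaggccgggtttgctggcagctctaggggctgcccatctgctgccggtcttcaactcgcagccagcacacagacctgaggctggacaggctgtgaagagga
Col4a5 and Col4a6 start 1415 bases apart on the X chromosome, a distance within which 11.69% of promoters had such a start, and their windows share no base. The stretch common to Col4a1 and Col4a2 holds the letters GGGCGG, known as a GC box, 2 times, counted on both strands. It holds the CCAAT box, named by its letters, 1 time. The Col4a4 window holds neither, while 33.1% of all promoters hold a GC box and 37.5% a CCAAT box. The letters TATAAA, also counted on both strands, were found in 14.2% of promoters and in none of the 9 members' windows in the table, in which Lamb2 is not listed. A match of letters is a description of the window and not a binding site.

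Of the 9 genes measured, 5 were higher in Dahl than in SHR glomeruli over both ages and none was lower: Col4a1, Col4a2, Col4a4, Lamc1 and Nid1. The strain difference was tested with limma on all 31042 probe sets, with Benjamini-Hochberg adjustment at a threshold of 0.05. By this test 10.6% of all probe sets were higher in Dahl and 24.2% lower, and among the probe sets that represent a gene 13.2% were higher. These shares depend on the scaling, with 7.28% higher and 7.99% lower after quantile normalization and 11.3% higher and 39.9% lower after median centring. They also depend on brightness. Among the brighter probe sets (15521 with a mean above the median), tested alone, 19% were higher and 11.8% lower. All of the 9 genes except Col4a4 were brighter than at least 94.2% of probe sets. The median difference was 0.62 on the log2 scale over the 9 genes and -0.0534 over all probe sets. For the same 5 genes the lowest Dahl rat exceeded the highest SHR rat, a separation found for 8.15% of all probe sets. The number of arrays limits the precision of all values.

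**Figure D1:**
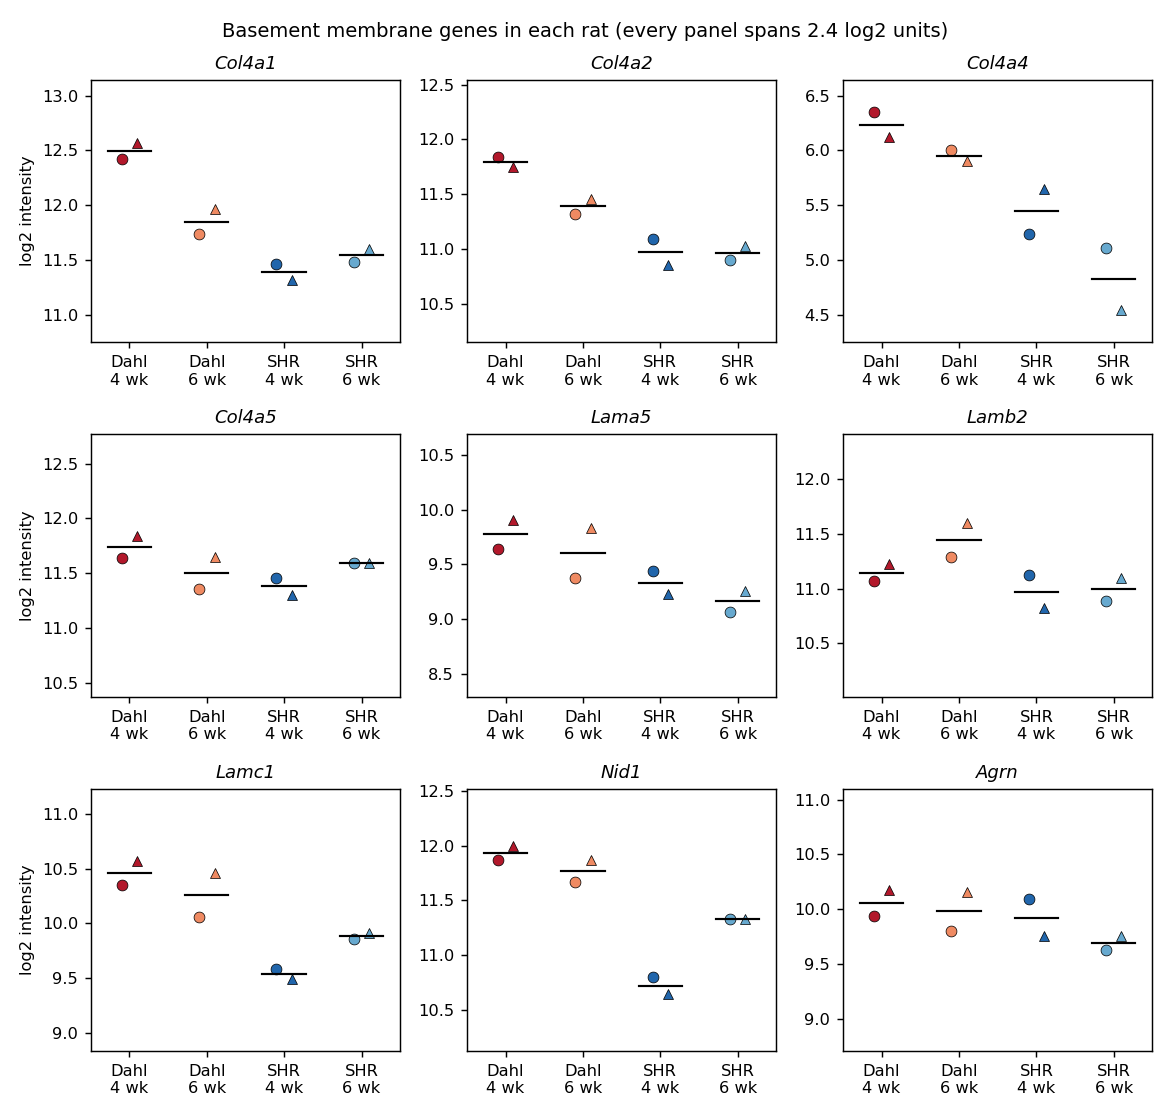
Level of each basement membrane gene (log2 intensity, vertical axis) in the 8 rats, grouped by strain and week of age. Replicate 1 is drawn as a circle and replicate 2 as a triangle, lines are the means of 2 rats, and every panel spans the same range of log2 units; Col4a1, Col4a2, Col4a4, Lamc1 and Nid1 have all Dahl rats above all SHR rats, and the strains overlap for the other genes.

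Col4a1 measured 12.42 and 12.57 in the Dahl rats of 4 weeks, 11.74 and 11.96 in those of 6 weeks, 11.46 and 11.32 in the SHR rats of 4 weeks and 11.48 and 11.60 in those of 6 weeks (log2 intensity, as for all levels given). The young Dahl rats stood highest and the lowest Dahl rat lay just above the highest SHR rat. Mean levels were 12.17 ± 0.385 in Dahl and 11.47 ± 0.115 in SHR (SD, n = 4), 0.71 apart on the log2 scale or 1.63-fold (standard error 0.0754, adjusted p = 0.00907 from limma). A second probe set for Col4a1 gave 0.60 (standard error 0.0723, adjusted p = 0.011 from limma), also with no overlap of the strains.

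Col4a2, the partner chain, measured 11.84 and 11.75 in Dahl at 4 weeks, 11.32 and 11.46 in Dahl at 6 weeks, 11.09 and 10.85 in SHR at 4 weeks and 10.90 and 11.03 in SHR at 6 weeks. The order of the groups was that of Col4a1 in the Dahl rats, with the younger pair above the older, whereas the SHR ages overlapped. Col4a2 was higher in Dahl by 0.62, or 1.54-fold (standard error 0.0729, adjusted p = 0.0105 from limma). Both calls, and that of Nid1, were kept when any 1 of the 8 arrays was left out.

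Col4a4, a chain of the mature network, measured 6.35 and 6.12 in Dahl at 4 weeks, 6.00 and 5.90 in Dahl at 6 weeks, 5.24 and 5.65 in SHR at 4 weeks and 5.11 and 4.54 in SHR at 6 weeks. All Dahl rats were above all SHR rats, and the SHR rats were spread more widely (SD 0.459) than the Dahl rats (SD 0.194). Col4a4 was higher in Dahl by 0.96, or 1.95-fold (standard error 0.169, adjusted p = 0.0218 from limma). It was no longer called without Dahl 4 weeks replicate 1 (0.91), Dahl 4 weeks replicate 2 (1.02), Dahl 6 weeks replicate 2 (0.99) or SHR 6 weeks replicate 2 (0.82).

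Col4a5, which joins Col4a4 in that network, measured 11.64 and 11.84 in Dahl at 4 weeks, 11.36 and 11.65 in Dahl at 6 weeks, 11.46 and 11.30 in SHR at 4 weeks and 11.59 and 11.59 in SHR at 6 weeks. The strains overlapped, and the older SHR rats lay between the older Dahl rats. The difference of 0.14 (95% interval -0.09 to 0.37) did not pass the test (adjusted p = 0.25 from limma). The chains of the mature network that were measured thus had different results, with Col4a4 past the threshold and Col4a5 not, and this difference between the 2 genes was not tested. Their probe sets also differ in brightness. That of Col4a4 had a mean of 5.61, above 62% of probe sets, and that of Col4a5 11.56, above 99.1%.

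Among the laminin chains, Lamc1 encodes the gamma chain found in most laminins and measured 10.35 and 10.57 in Dahl at 4 weeks, 10.06 and 10.46 in Dahl at 6 weeks, 9.58 and 9.49 in SHR at 4 weeks and 9.86 and 9.91 in SHR at 6 weeks. The SHR rats of 4 weeks were lowest and no SHR rat reached the Dahl range. Lamc1 was higher in Dahl by 0.65 (standard error 0.107, adjusted p = 0.0196 from limma), and a dimmer probe set by 1.31 (standard error 0.226, adjusted p = 0.021 from limma), so the probe sets differed in size but not in direction. The call of the brighter one was lost without Dahl 4 weeks replicate 2 (0.59), SHR 4 weeks replicate 2 (0.62), SHR 6 weeks replicate 1 (0.64) or SHR 6 weeks replicate 2 (0.66).

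Lama5, the alpha chain of the mature laminin, measured 9.64 and 9.91 in Dahl at 4 weeks, 9.38 and 9.83 in Dahl at 6 weeks, 9.44 and 9.23 in SHR at 4 weeks and 9.07 and 9.26 in SHR at 6 weeks. Only 1 Dahl rat fell within the SHR range. The difference of 0.44 (95% interval 0.10 to 0.78) missed the threshold (adjusted p = 0.0557 from limma). A pair of dim probe sets for Lama5, at levels of 2.30 to 2.39 and 2.10 to 2.17, were lower in Dahl by amounts that are small on this scale (-0.0655 and -0.0533, adjusted p = 0.0387 and 0.0481 from limma), against the median of -0.0534 over all probe sets.

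Lamb2, the beta chain of that laminin, measured 11.07 and 11.22 in Dahl at 4 weeks, 11.29 and 11.60 in Dahl at 6 weeks, 11.12 and 10.82 in SHR at 4 weeks and 10.89 and 11.10 in SHR at 6 weeks. The difference was 0.31 (95% interval 0.01 to 0.61, adjusted p = 0.0849 from limma), with overlap between the young rats of both strains. Agrn measured 9.94 and 10.17 in Dahl at 4 weeks, 9.80 and 10.16 in Dahl at 6 weeks, 10.09 and 9.75 in SHR at 4 weeks and 9.63 and 9.75 in SHR at 6 weeks. The strains overlapped for Agrn, and its difference of 0.21 (95% interval -0.12 to 0.54) did not pass the test (adjusted p = 0.228 from limma).

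Nid1, which encodes the linker between laminin and collagen, measured 11.87 and 12.00 in Dahl at 4 weeks, 11.67 and 11.87 in Dahl at 6 weeks, 10.80 and 10.64 in SHR at 4 weeks and 11.33 and 11.33 in SHR at 6 weeks. Dahl rats of both ages formed a narrow band, while the SHR rats of 4 weeks lay well below those of 6 weeks. Nid1 was higher in Dahl by 0.83, or 1.77-fold, and had the smallest adjusted p of the 9 genes (standard error 0.0661, adjusted p = 0.00631 from limma). Its other probe set was near the bottom of the scale in all rats (2.73 to 2.80) and differed by -0.0256 (adjusted p = 0.358 from limma).

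At 4 weeks, 4 of the 9 genes were higher in Dahl and none was lower, where 5.63% of all probe sets and 7.88% of the probe sets representing a gene were higher. Of the brighter probe sets tested alone, 13.1% were higher. Nid1 differed by 1.21, or 2.32-fold (standard error 0.0935, adjusted p = 0.00754 from limma), and Col4a1 by 1.10, or 2.14-fold (standard error 0.107, adjusted p = 0.0108 from limma). Lamc1 differed by 0.92 (standard error 0.152, adjusted p = 0.0298 from limma) and Col4a2 by 0.82, or 1.76-fold (standard error 0.103, adjusted p = 0.0183 from limma). Col4a4 differed by 0.80 with a larger error (standard error 0.239, adjusted p = 0.0933 from limma). The median over the 9 genes was 0.80, against -0.0533 over all probe sets.

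The calls at 4 weeks rest on few rats. Nid1 kept its call whichever array was left out, and Col4a1 lost it only without Dahl 4 weeks replicate 2, with 1.02 (adjusted p = 0.0541 from limma). Col4a2 lost it without Dahl 4 weeks replicate 1 (0.77), Dahl 4 weeks replicate 2 (0.86) or SHR 4 weeks replicate 2 (0.70). Lamc1 kept it only when either Dahl rat of 6 weeks was left out, and ranged from 0.81 to 1.03. With the 4 arrays of 4 weeks alone, Nid1 was the only one of the 9 called, where 1.48% of all probe sets were higher.

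At 6 weeks none of the 9 genes passed the test, where 1.65% of all probe sets and 6.39% of the brighter ones were higher in Dahl. An unadjusted p below 0.05 from limma was found for 5 of the 9. The share of all probe sets with such a p is not given here, so this count has no background. Nid1 differed by 0.44 (95% interval 0.20 to 0.68, adjusted p = 0.0733 from limma), Col4a2 by 0.43 (0.16 to 0.70, adjusted p = 0.0853) and Col4a1 by 0.31 (0.04 to 0.59, adjusted p = 0.128). Col4a4 had the largest value, 1.13, and the widest interval (0.51 to 1.75, adjusted p = 0.0728 from limma). Col4a5 differed by -0.0865 (95% interval -0.41 to 0.24), Agrn by 0.29 (-0.18 to 0.76) and Lamb2 by 0.45 (0.03 to 0.87), none past the threshold. The median of 0.43 over the 9 genes compares with -0.0551 over all probe sets. With an intensity trend and robust variances, Col4a2, Col4a4 and Nid1 passed, but calls became more frequent across the array too, with 5.6% of all probe sets higher and 21.7% lower, against 1.65% and 1.63%.

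**Figure D2:**
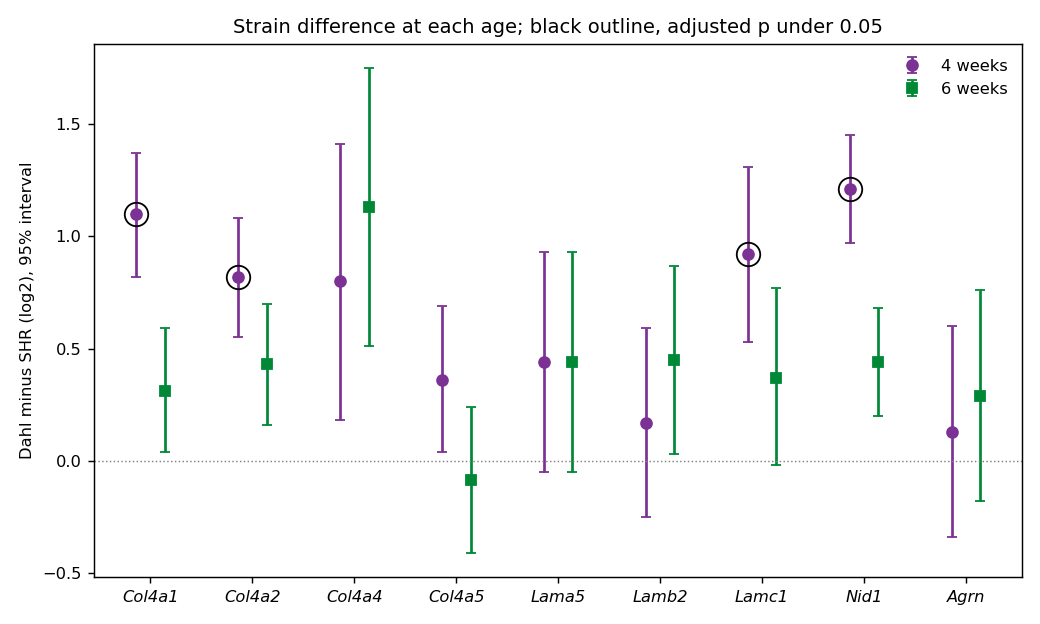
Strain difference of each gene (Dahl minus SHR, log2, vertical axis) at 4 weeks (circles) and 6 weeks (squares), with 95% intervals from limma; black outlines mark an adjusted p under 0.05. Outlines are seen at 4 weeks only, for Col4a1 (1.10), Col4a2 (0.82), Lamc1 (0.92) and Nid1 (1.21), while Col4a4 has its larger value at 6 weeks.

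The ages were compared within each strain and none of the 9 genes passed. Among all probe sets, 0.0805% differed between the ages in Dahl and 2.42% in SHR, in either direction. Col4a1 had the smallest unadjusted p of the 9 in Dahl, with -0.64 from 4 to 6 weeks (standard error 0.107, unadjusted p = 0.00195, adjusted p = 0.202 from limma), and 0.15 in SHR (adjusted p = 0.65). Nid1 showed the other arrangement, with -0.16 in Dahl (adjusted p = 0.724 from limma) and 0.61 in SHR (standard error 0.0935, adjusted p = 0.0531). In the arrays, the smaller strain difference at 6 weeks thus went with lower Dahl values for Col4a1 and with higher SHR values for Nid1.

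Whether the strain difference itself changed with age was tested by the interaction of strain and age, which 0.519% of all probe sets passed in either direction and none of the 9 genes. The change was -0.79 for Col4a1 (standard error 0.151, unadjusted p = 0.00359, adjusted p = 0.149 from limma), with -0.40 for its second probe set (adjusted p = 0.412). It was -0.77 for Nid1 (standard error 0.132, unadjusted p = 0.00218, adjusted p = 0.124 from limma), -0.55 for Lamc1 and -0.39 for Col4a2. Calls at 4 weeks and their lack at 6 weeks therefore do not show that the strain difference fell.

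To compare Col4a1 and Col4a2 with the other members inside each array, every gene was centred on its mean over the 8 arrays and the mean of the 2 chains was taken against each other gene, as a description without a test. Against Col4a5 the value was 0.49 and 0.32 in Dahl at 4 weeks, 0.18 and 0.0657 in Dahl at 6 weeks, -0.18 and -0.21 in SHR at 4 weeks and -0.40 and -0.27 in SHR at 6 weeks. Every Dahl rat was above every SHR rat, and the mean difference between strains was 0.53. Against Col4a4 it was -0.30 with overlap, and against the mean of Col4a4 and Col4a5 it was 0.11 with overlap. The comparison with the mature network as a whole therefore depends on which of its chains is used. Of those chains, Col4a4 lay on a much dimmer probe set (mean 5.61) than Col4a5 (mean 11.56).

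Against Agrn the strains differed by 0.46, with 0.55 and 0.35 in Dahl at 4 weeks, 0.0953 and -0.0878 in Dahl at 6 weeks, -0.45 and -0.30 in SHR at 4 weeks and -0.0807 and -0.0774 in SHR at 6 weeks. The strains were apart at 4 weeks and overlapped at 6 weeks. Against the mean of Lama5, Lamb2 and Lamc1, the young Dahl rats had 0.44 and 0.26, the older ones -0.0445 and -0.25, and the SHR rats -0.11 to -0.0886. Here only the Dahl rats of 4 weeks stood apart. Against Nid1 the strains differed by -0.16 and overlapped.

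**Figure D3:**
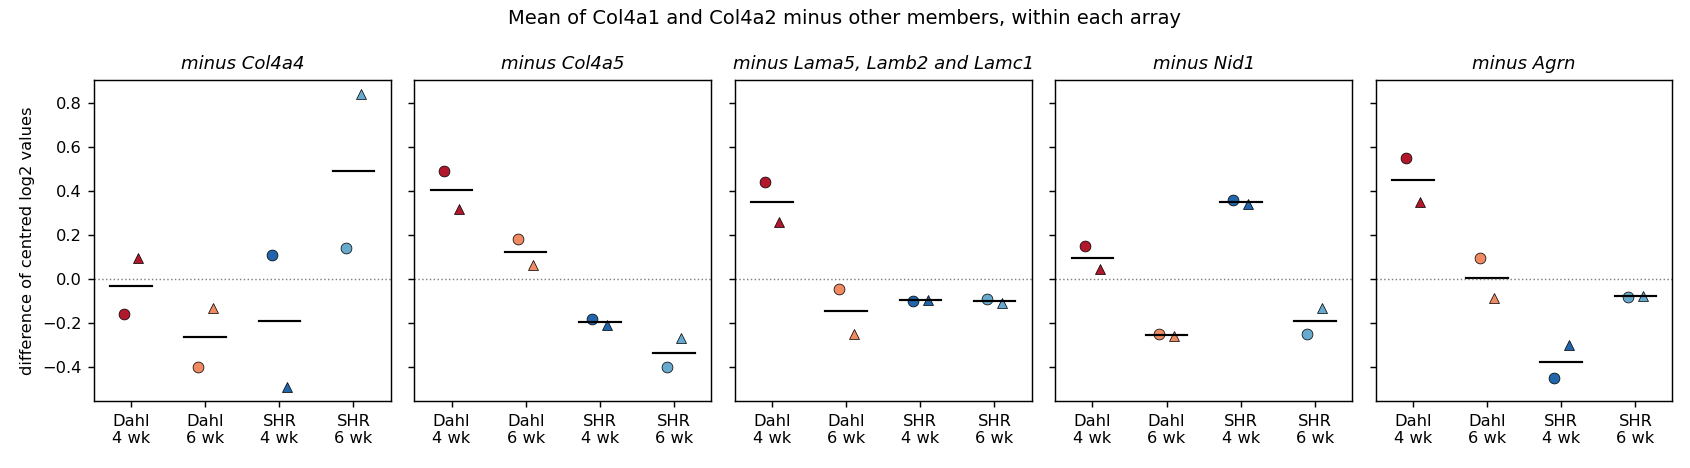
Mean of Col4a1 and Col4a2 minus other members within each array (difference of centred log2 values, vertical axis), for each strain at each age. Points are rats (replicate 1 as circles, replicate 2 as triangles) and lines the means of 2 rats; the strains are apart only in the panel for Col4a5, and in the laminin panel the Dahl rats of 4 weeks alone lie above 0.

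The genes most like Col4a1 across the 8 arrays were sought among 7204 genes with a mean of at least 6, by the mean absolute difference of centred log2 values. Col5a1, a fibrillar collagen chain, was closest (0.0888), and Col4a2 came next (0.1). Tril followed with 0.114, Mex3d with 0.122 and Smarcad1 with 0.127. Of the other members, Lamc1 ranked at 14 (0.161), Lama5 at 70 (0.2), Nid1 at 217 (0.235), Agrn at 645 (0.275), Col4a5 at 790 (0.284) and Lamb2 at 1997 (0.334). Col4a4 was below the minimum level and had a distance of 0.321. These distances rest on 8 arrays and are given with no test.

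Other laminin and type IV collagen chains, which are not among the members, were compared in the same way. Of 8 measured chains, 1 was higher in Dahl over both ages, 1 was lower and the median was -0.0982. Of all probe sets, 10.6% were higher and 24.2% lower, so these counts do not set the chains apart. Lama4, an alpha chain of endothelial and mesangial laminins, measured 8.87 and 8.97 in Dahl at 4 weeks, 8.69 and 8.89 in Dahl at 6 weeks, 8.02 and 7.79 in SHR at 4 weeks and 8.08 and 8.26 in SHR at 6 weeks. All Dahl rats were above all SHR rats, and the difference was 0.82 (standard error 0.0845, adjusted p = 0.00874 from limma). Lamb3 was lower by a small amount at low signal (-0.14, adjusted p = 0.0382 from limma), a call that held in 2 of 8 runs with an array left out, against 8 of 8 for Lama4. Lamb1, the beta chain of the immature laminin, differed by -0.21 (adjusted p = 0.0841 from limma), and Lama1 (-0.42), Lama2 (-0.0442), Lama3 (-0.0571), Lamc3 (-0.14) and Col4a6 (-0.0233) were not called.

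Among 15 other basement membrane components measured, 4 were higher in Dahl and 3 were lower, with a median of 0.097. Of all probe sets, 10.6% were higher and 24.2% lower. Nid2, the second nidogen, was higher by 0.57 (adjusted p = 0.0179 from limma), Sparc, which binds collagen, by 0.44 (adjusted p = 0.0215) and Frem2 by 0.84 (adjusted p = 0.0408). Hspg2, which encodes perlecan and is named after its value was seen, was the other higher one (0.50, adjusted p = 0.0467 from limma). Vwa1 (-0.40), Fras1 (-0.17) and Smoc1 (-0.0848) were lower, the latter 2 on dim probe sets (3.06 to 3.38 for Fras1 and 2.60 to 2.75 for Smoc1) and against the median of -0.0534 over all probe sets. None of these 7 calls was kept under every array left out, and the number of the 8 leave-one-out runs in which they held was 4 for Nid2, 3 for Sparc, 2 for Frem2 and Vwa1 and 1 for Hspg2, Fras1 and Smoc1.

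Of 16 genes for collagen processing and crosslinking, 8 were higher in Dahl and none was lower, with a median of 0.36. Of all probe sets 10.6% were higher and 24.2% lower, and of the brighter ones 19% and 11.8%. Loxl2, a lysyl oxidase that crosslinks type IV collagen, measured 5.65 and 5.70 in Dahl at 4 weeks, 4.76 and 4.67 in Dahl at 6 weeks, 3.89 and 3.83 in SHR at 4 weeks and 4.31 and 4.08 in SHR at 6 weeks. It was higher in Dahl by 1.17 (standard error 0.06, adjusted p = 0.00263 from limma), with no overlap. Loxl2 had a mean of 4.61, above 53.6% of probe sets. The SHR values of 3.89, 3.83 and 4.08 lay below the median of all probe sets (4.14), so the size of the Loxl2 difference is not exact. Its strain difference was the only one of this list to pass the interaction test, with 1.82 at 4 weeks and 0.52 at 6 weeks (change -1.30, adjusted p = 0.0397 from limma), and that call held in 2 of 8 runs with an array left out.

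Plod2, a lysyl hydroxylase, measured 9.25 and 9.53 in Dahl at 4 weeks, 9.34 and 9.52 in Dahl at 6 weeks, 7.64 and 8.04 in SHR at 4 weeks and 8.37 and 8.24 in SHR at 6 weeks. It was higher in Dahl by 1.34, or 2.53-fold (standard error 0.123, adjusted p = 0.00771 from limma), with the Dahl ages level with each other. Lox, which crosslinks fibrillar collagen and elastin, was higher by 1.05 (standard error 0.0561, adjusted p = 0.00279 from limma), although the SHR rats of 4 weeks (6.55 and 6.53) lay above the Dahl rats of 6 weeks (6.33 and 6.49). Within each age the strains did not overlap for Lox, and the SHR rats of 6 weeks had 4.88 and 4.84.

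Other genes of this list are named after their values were seen. Serpinh1, the collagen chaperone of the endoplasmic reticulum, measured 10.53 and 10.45 in Dahl at 4 weeks, 9.84 and 10.20 in Dahl at 6 weeks, 8.93 and 8.50 in SHR at 4 weeks and 9.50 and 9.55 in SHR at 6 weeks. It was higher by 1.14 (adjusted p = 0.00994 from limma), and P3h3, a prolyl hydroxylase family member, by 0.93 (adjusted p = 0.0118). Loxl2, Lox, Plod2, Serpinh1 and P3h3 kept their calls over both ages whichever array was left out. P3h1 (0.68), P4hb (0.17) and Ppib (0.0931) completed the 8, and Pxdn, the peroxidasin that crosslinks type IV collagen, differed by -0.00529 (95% interval -0.23 to 0.22).

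Of 13 matrix receptors measured, 6 were higher in Dahl and 1 was lower, with a median of 0.48. Of all probe sets 10.6% were higher and 24.2% lower, and of the brighter ones 19% and 11.8%. Ddr2, a collagen receptor tyrosine kinase, was higher by 0.94 (standard error 0.108, adjusted p = 0.0102 from limma), with the young SHR rats lowest (6.86 and 6.61) and the older Dahl rats highest (8.72 and 8.92). Itga8, the integrin alpha chain of mesangial cells, was higher by 0.74 (adjusted p = 0.0121 from limma) and the tetraspanin gene Cd151 by 0.66 (adjusted p = 0.0128). Itga1, an alpha chain of a collagen receptor, was the lower one, with -0.56 between the strains (standard error 0.0814, adjusted p = 0.0155 from limma).

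The podocyte laminin receptor chains were among the receptors named after their values were seen. Itga3 measured 10.62 and 10.57 in Dahl at 4 weeks, 11.04 and 11.39 in Dahl at 6 weeks, 10.06 and 9.79 in SHR at 4 weeks and 10.06 and 10.34 in SHR at 6 weeks. It was higher by 0.84 (adjusted p = 0.0148 from limma), Itgb1 by 0.48 (adjusted p = 0.0143) and Dag1, which encodes dystroglycan, by 0.54 (adjusted p = 0.0431). Ddr2 and Itga8 kept their calls whichever array was left out. Cd151 lost its call without SHR 6 weeks replicate 2, Itga3 without Dahl 4 weeks replicate 2, and Itga1 and Itgb1 without either SHR rat of 6 weeks, while Dag1 kept its call in 1 of the 8 runs. Over these runs the difference ranged from 0.57 to 0.74 for Cd151, from 0.76 to 0.93 for Itga3, from -0.63 to -0.48 for Itga1 and from 0.43 to 0.54 for Itgb1.

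**Figure D4:**
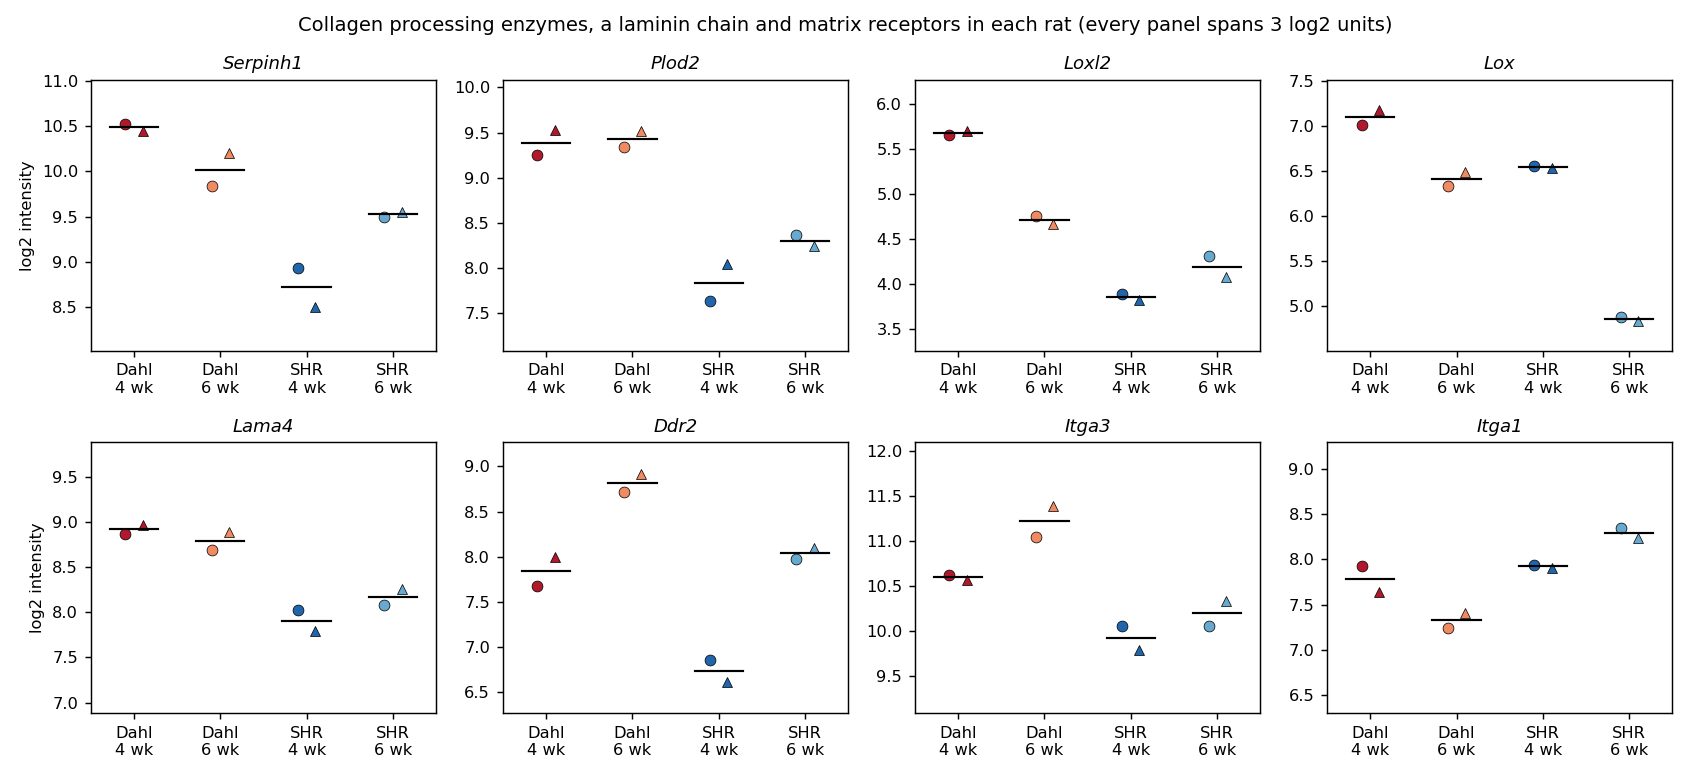
Level (log2 intensity, vertical axis) of collagen processing genes, Lama4 and matrix receptors in the 8 rats, grouped by strain and week of age. Replicate 1 is a circle, replicate 2 a triangle and lines are the means of 2 rats; Dahl rats lie above SHR rats at both ages for all genes shown except Itga1, for which they lie below or overlap.

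Markers of glomerular and other cells were compared between the strains as well. The labelled tissue was present in every array, with the podocyte marker Nphs1 at 11.84 to 12.65 and the endothelial marker Kdr at 11.64 to 12.46. Proximal tubule markers were also bright, with Slc34a1 at 12.15 to 13.79, and none of the 25 in the list was higher in Dahl and 4 were lower. Over all probe sets 24.2% were lower, and 11.8% of the brighter ones, to which all 25 belong. The count of 4 therefore does not set these markers apart. All 25 had lower mean values in Dahl, with a median difference of -1.04, against -0.0534 over all probe sets. Of 8 distal nephron markers none was higher and 2 were lower, a count that does not set them apart either. All 8 differences were below 0, with a median of -0.86 (mean level 6.53 to 8.17 in Dahl and 7.85 to 8.82 in SHR). The share of all probe sets with a difference below 0 is not given here, so these counts below 0 have no background. The mean level of the proximal tubule markers was 8.75 to 10.79 in Dahl and 11.00 to 11.69 in SHR rats, and the lowest value was that of Dahl 6 weeks replicate 2. No defining marker of the tubule list (Slc34a1, Slc5a2, Slc22a6, Lrp2, Cubn, Cyp2e1) was near the floor in any rat.

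Mesangial and smooth muscle markers were higher in Dahl in 7 of 12 cases (mean level 7.25 to 7.49 in Dahl and 6.49 to 6.65 in SHR), endothelial markers in 7 of 13 (8.97 to 9.54 and 8.47 to 8.84) and podocyte markers in 6 of 13 (9.98 to 10.54 and 9.50 to 9.92), none lower. For these and the next lists, 10.6% of all probe sets were higher and 24.2% lower, and 19% and 11.8% of the brighter ones. Leukocyte markers were higher in 8 of 12 and lower in 2 (5.62 to 6.47 and 4.27 to 6.00), with a median difference of 1.74 at 4 weeks and 0.32 at 6 weeks. Interstitial matrix genes were higher in 6 of 15 and lower in 2, with a median of 0.33. Their median was 0.92 at 4 weeks and 0.31 at 6 weeks. Col1a1 (mean 9.62 in Dahl and 6.98 in SHR) and Fn1 (9.47 and 7.33), named after their values were seen, differed more than any of the 9 members. In whole glomeruli, more cells of a type and more RNA per cell cannot be told apart. The part of these markers in the results on the basement membrane genes was not tested beyond the covariate that follows.

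With the proximal tubule score added to the model, none of the 9 genes passed over both ages, and calls became rare across the whole array, with 0.66% of all probe sets higher and 337 called in either direction against 10787 without the score. This model leaves 3 residual degrees of freedom. The differences were then 0.56 for Col4a1 (adjusted p = 0.0943 from limma), 0.54 for Col4a2 (adjusted p = 0.125), 1.03 for Col4a4 (adjusted p = 0.175), 0.39 for Lamc1 (adjusted p = 0.125) and 0.69 for Nid1 (adjusted p = 0.0604). At 4 weeks in the same model, Col4a1 (1.00, adjusted p = 0.0271), Lamc1 (0.75, adjusted p = 0.0352) and Nid1 (1.12, adjusted p = 0.0205) passed, where 2.85% of all probe sets were higher, and Col4a2 did not (0.76, adjusted p = 0.0572 from limma). The slope of this score comes from differences between rats of a group, which are widest between the Dahl rats of 6 weeks. Without Dahl 6 weeks replicate 2 and without the score, the differences over both ages were 0.65 for Col4a1, 0.59 for Col4a2, 0.55 for Lamc1 and 0.78 for Nid1. The value of Col4a4 in that run is given with its levels above. The mean level of the proximal tubule markers was 10.45 to 10.79 in the remaining Dahl rats and 11.00 to 11.69 in SHR. That run therefore does not remove the tubule difference between the strains.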

How the data were processed

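RNA of isolated glomeruli from 8 rats in 4 groups was labelled with biotin and hybridized to Affymetrix Rat Genome arrays, 1 per rat. The labels call the 2 rats of a group biological replicates. The authors deposited log2 intensities per probe set, corrected for background and normalized between arrays, and their processing notes name RMA and GCRMA, without saying which was used. Array medians ran from 4.11 to 4.16, and arrays of a group correlated at 0.989 to 0.997. Days of processing were not used here, so batches could not be examined.

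Of 31099 probe sets, 57 controls were left out. The array's annotation named 1 gene for 20826 of the 31042 tested and several for 436, which were given no name. A gene is represented by its probe set with the highest mean. The 4 group means were fitted with limma 3.58.1 in R 4.3.3 (4 residual and 0.921 prior degrees of freedom). Contrasts were Dahl minus SHR over both ages and at each age, 6 minus 4 weeks in each strain, and their interaction. These contrasts share rats, so calls in them are not independent. The p values were adjusted by Benjamini-Hochberg over all probe sets, at 0.05. The fit was tested on simulated data. Promoter windows are those of RefSeq on GRCr8, and 9 of the 10 members are in that table.

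The members, the gene lists and the tests were chosen with earlier results of these data known. Named genes are the members, the other laminin and type IV collagen chains, up to 3 genes per list and direction with the smallest p among those called over both ages, and the 5 genes most like Col4a1; others are said to be named after their values were seen. Since no probe set is annotated to Col4a3, the comparison of Col4a1 and Col4a2 with the mature network uses Col4a4 and Col4a5, each also taken alone after the data were seen. Alternatives were trend and robust variances, quantile normalization, median centring, brighter probe sets, a block for the replicate number, arrays left out in turn, a covariate for proximal tubule markers, other probe sets or their mean, simpler models, the arrays of 1 age, and the methods' t-test.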

Additional observations from a re-analysis of the deposited data

Results flagged for a closer look

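The strain difference of Loxl2, which encodes an enzyme that crosslinks type IV collagen, was smaller at 6 weeks than at 4 weeks by the interaction test (-1.30 on the log2 scale, adjusted p = 0.0397 from limma). Loxl2 was dim in the SHR rats (3.83 to 4.31), so the size of this change is not exact. The strain difference of Scnn1a, a sodium channel subunit and distal nephron marker, also changed between the ages (1.94, adjusted p = 0.048 from limma), from -2.24 at 4 weeks to -0.30 at 6 weeks. Its probe set lay below the median of all probe sets (4.14) in every Dahl rat (2.89 to 3.03) and in the SHR rats of 6 weeks (3.44 and 3.07), against 5.31 and 5.10 in those of 4 weeks. The difference therefore rests on dim values, and its size is not exact. The Loxl2 call held in 2 of 8 runs with 1 array left out and the Scnn1a call in none, the values ranging from -1.41 to -1.18 and from 1.75 to 2.12.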

How the results depend on the processing

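Over both ages, the count of 5 called genes was 5 or 6 under every alternative except the tubule covariate, which gave 0, and leaving out 1 array, which gave 3 to 6. All called probe sets numbered 10787, and 4740 after quantile normalization, 15891 after median centring, 15164 with trend and robust variances, 337 with the covariate and 2286 to 11471 with 1 array left out, and of the called ones 30.4% were higher, 47.7% after quantile normalization and 22% after median centring. The added gene was Lama5, higher in Dahl except under the probe set with the second highest mean, where it was lower and Nid1 was not called. At 4 weeks the count of 4 became 1 with the arrays of that age alone, where fewer samples were used, and 1 to 4 with 1 array left out. At 6 weeks the count of 0 became 3 with trend and robust variances and 1 (Col4a4) with brighter probe sets only, while the probe sets called in either direction went from 1017 of 31042 to 8488 and to 1446 of 15521. From 4 to 6 weeks in SHR it became 1 (Nid1) with median centring and with brighter probe sets. The within-array contrast of 0.11 was -0.30 against Col4a4 alone and 0.53 against Col4a5 alone. Signs turned for values that had not passed or that lay on dim probe sets. With the tubule covariate these were Col4a5 over both ages (-0.0626) and Agrn over both ages and at 4 or 6 weeks alone (-0.0399, -0.0362 and -0.0436). With the second probe set, Lama5 gave -0.0655, -0.064 and -0.067 and Nid1 -0.0256, -0.0251 and -0.026 in these comparisons, and from 4 to 6 weeks in SHR Col4a1 gave -0.0224 and Nid1 -0.00236. Col4a2 from 4 to 6 weeks in SHR was 0.0231 after quantile normalization and -0.13 to 0.11 with 1 array left out. Leaving out 1 array gave -0.23 to 0.0597 for Col4a5 at 6 weeks and -0.0423 to 0.30 for Agrn at 4 weeks. The cause was not tested. The labels do not say that replicate numbers pair the rats of different groups. Differences between replicates 1 and 2 correlated at -0.23 to 0.24 between groups, which cannot exclude a batch shared by replicate number. Taken as a block, the replicate numbers left the counts of called members at 5, 4, 0, 0, 0 and 0. The called probe sets over both ages then numbered 5598 against 10787. With 2 rats per group, an array left out leaves a lone rat that is assumed to vary like the others.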
